A study of Mus musculus with 9 samples.

Results

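The mouse genome holds 39 protein-coding Hox genes, named Hoxa, Hoxb, Hoxc or Hoxd with a position number from 1 to 13, and all 39 were found by symbol among the 54453 rows of the deposited count table. They lie in 4 clusters: 11 in Hoxa, 10 in Hoxb, 9 in Hoxc and 9 in Hoxd. Their mRNA was measured by sequencing of polyA RNA from 9 frozen whole pancreatic tumors of KPC mice, a strain in which pancreatic ductal adenocarcinoma arises from engineered alleles, Trp53 among them, switched by Cre recombinase. The 4 tumors labelled Scrib WT (2, 3, 6 and 9) carry the genotype written KPF/+C, and the 5 labelled Scrib null (7, 14, 15, 18 and 23) the genotype written KPF/+CSF/F, so both groups share the KPC alleles. Scrib encodes a scaffold protein of epithelial cell polarity. The sources used here give neither the Cre driver nor the age of the mice, and each tumor has its own identifier but no stated animal of origin. The p-values below therefore rest on the tumor-to-tumor spread alone.

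Hox genes encode homeodomain transcription factors that give cells their position along the body axis. Within a cluster the genes stand in the order in which they are used: low position numbers (anterior genes) are active early and towards the head, high numbers (posterior genes) late and towards the tail, limb tips and genital tract. Genes with the same number in different clusters are paralogs, copies of an ancestral gene. Adult fibroblasts and other mesenchymal cells keep a Hox pattern that reflects the site of the body they came from, while the pancreatic epithelium is specified by the related ParaHox factor Pdx1. Hox proteins bind DNA with cofactors of the TALE class (Pbx, Meis and Pknox proteins). Retinoic acid switches on anterior genes in the embryo, and Polycomb and trithorax proteins keep the clusters off or on.

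The estimated counts of a tumor summed to between 10145723 and 27596587, and 3 counts corresponded to between 0.103 and 0.287 CPM (counts scaled to a common normalised library size). Such floors cover counting error only. Scrib mRNA was at 88.5, 44.1, 62.0 and 87.4 CPM in tumors WT 2, 3, 6 and 9, and at 102, 53.8, 55.4, 53.2 and 36.9 CPM in tumors null 7, 14, 15, 18 and 23. The groups overlapped, with a log2 fold change of -0.23 ± 0.31 (SE; edgeR adjusted p = 0.712), so whole-gene Scrib counts did not check the labels, and WT and null name the labels below. All 6 epithelial markers were counted in every tumor, summing to between 5643 and 9172 CPM. All 10 fibroblast markers were counted in every tumor too, and their sum was 363 CPM in null 7, against 3355 to 4553 CPM in the other null tumors and 2180 to 9430 CPM in the WT tumors. Tumor null 7 also had the lowest sums of the endothelial (33.3 CPM), leukocyte (93.9 CPM) and macrophage (302 CPM) markers. In whole tumors, fewer cells of a type and less RNA per cell cannot be told apart.

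Hox mRNA was scarce and mostly anterior to central. All 39 genes together took 37.9 to 70.7 CPM in the WT tumors and 5.50 to 43.9 CPM in the null tumors. A gene was counted as present when its estimated count was at least 10 in at least 4 tumors, and as near 0 when it stayed under 10 counts in every tumor. By these rules 17 genes were present, 11 were near 0 and 11 lay between. The present genes were 6 of Hoxa (Hoxa3, Hoxa4 and Hoxa5 among them), 7 of Hoxb (Hoxb2 to Hoxb8), 3 of Hoxc (Hoxc4, Hoxc5 and Hoxc6) and only Hoxd8 of Hoxd. Among the genes near 0, 4 had no count in any tumor: Hoxb13, Hoxc12, Hoxc13 and Hoxd1. The other 7, Hoxa6, Hoxa13, Hoxb1, Hoxc11, Hoxd3, Hoxd12 and Hoxd13, reached at most 8 counts in a tumor. The filter on low counts (a minimum count of 10) split the genes by position: 18 of the 23 genes at positions 1 to 8 passed it, and 0 of the 16 genes at positions 9 to 13 did.

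Levels of different genes were compared per length, as CPM per kb of annotated exon, averaged over all 9 tumors. Hoxa5 stood first of the 39 at 2.33 CPM per kb, followed by Hoxb7 at 1.82, Hoxb6 at 1.48, Hoxb2 at 1.47, Hoxb4 at 1.45 and Hoxd8 at 1.19 CPM per kb. The order was not the same in both groups. Among the WT tumors the highest mean levels were those of Hoxb7 (2.69 CPM per kb), Hoxa5 (2.40) and Hoxd8 (2.22), and among the null tumors those of Hoxa5 (2.28 CPM per kb), Hoxb2 (1.142) and Hoxb7 (1.13), with Hoxd8 at 0.363 CPM per kb. In the Hoxa cluster, Hoxa5 was above Hoxa4 (0.974 CPM per kb) and Hoxa4 above Hoxa3 (0.448 CPM per kb) in 9 of 9 tumors. The second of these orders depended on the length used: per kb of the longest transcript Hoxa3 was at 1.04 CPM, and Hoxa4 was above it in 3 of 9 tumors. In the Hoxb cluster, Hoxb7 was above Hoxb6 in 8 of 9 tumors, while Hoxb6, Hoxb2 and Hoxb4 changed places from tumor to tumor and could not be ordered. Hoxb8 (1.12 CPM per kb) was above Hoxb3 (0.636 CPM per kb) in 9 of 9 tumors, and Hoxb5 (0.578 CPM per kb) was above Hoxb9 (0.143 CPM per kb) in 9 of 9. In the Hoxc cluster, Hoxc4 led at 0.524 CPM per kb and was above Hoxc6 (0.257 CPM per kb) in 8 of 9 tumors, and Hoxc6 and Hoxc5 (0.209 CPM per kb) could not be ordered. Hoxd8 was above Hoxd9 (0.203 CPM per kb) in 9 of 9 tumors, and Hoxd9 and Hoxd4 (0.155 CPM per kb) could not be ordered. Taken tumor by tumor, Hoxd8 was the highest gene of its cluster in 9 of 9 and Hoxa5 in 8 of 9, with Hoxa11 highest in WT 6. Hoxc4 led its cluster in 7 of 9 tumors, with Hoxc9 highest in WT 6 and Hoxc6 in null 7. The Hoxb cluster had no single leading gene, since Hoxb7 was highest in 5 tumors, Hoxb2 in 3 and Hoxb6 in 1.

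**Figure D1:**
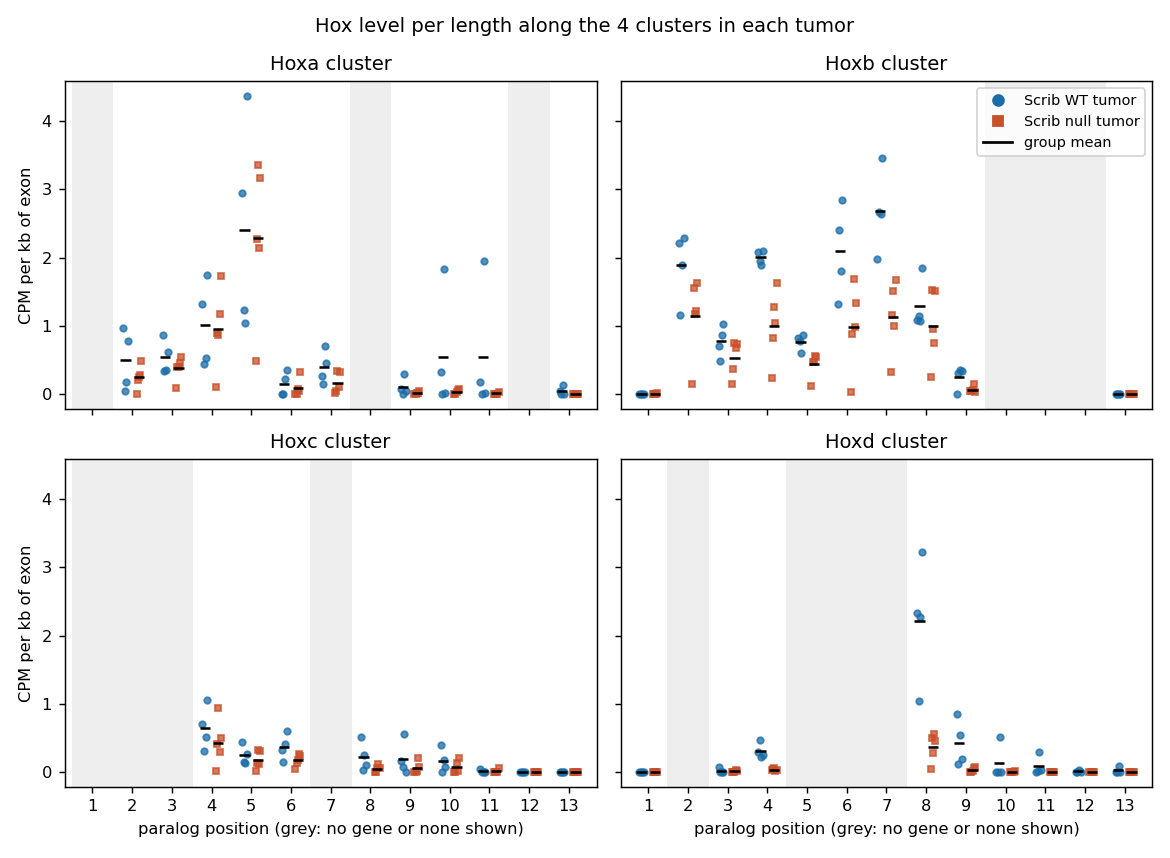
Level per length (CPM per kb of exon, vertical axis) of the Hox genes by position in the cluster (horizontal axis; grey where there is no gene or none is shown), one panel per cluster, with 1 point per tumor (blue circles, Scrib WT, n = 4; orange squares, Scrib null, n = 5) and black lines for group means. Averaged over all 9 tumors the highest genes are Hoxa5, Hoxb7, Hoxc4 and Hoxd8, the highest points at positions 9 to 13 are those of WT 6 at Hoxa10 and Hoxa11, and at Hoxd8 all WT points lie above all null points.

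The Hoxd cluster (chr2:74668310-74765142, plus strand, GRCm38) separated the groups most among the 4 clusters. Its 9 genes summed to 9.36, 4.55, 10.5 and 10.1 CPM in tumors WT 2, 3, 6 and 9, and to 0.202, 1.47, 0.958, 1.79 and 1.55 CPM in tumors null 7, 14, 15, 18 and 23. The groups did not overlap, and the WT mean of 8.62 ± 2.75 CPM (SD, n = 4) was 7.22 times the null mean of 1.19 ± 0.632 CPM (SD, n = 5). The cluster also took a different share of all Hox counts, 15.3%, 12.02%, 16.5% and 14.2% in the WT tumors against 3.67%, 4.93%, 2.56%, 5.67% and 3.54% in the null tumors. Since this share is taken within the Hox genes of each tumor, it does not depend on how libraries were scaled. Taken over positions 1 to 8 alone, the difference of mean log2 CPM between null and WT was -2.89, against -3.10 with positions 9 to 13 included and -2.54 without null 7.

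Hoxd8, a central gene of the cluster (chr2:74704615-74707933), carried most of this difference. It was at 6.40, 2.84, 6.23 and 8.85 CPM in tumors WT 2, 3, 6 and 9, and at 0.101, 1.37, 0.753, 1.53 and 1.24 CPM in tumors null 7, 14, 15, 18 and 23. Every WT tumor was above every null tumor. The fibroblast marker sums of null 14, 15, 18 and 23 lay within the WT range, and the part of fibroblasts in this difference was not tested. The counts behind these levels were 67, 33, 162 and 204 in the WT tumors and 2, 26, 22, 41 and 35 in the null tumors. The log2 fold change was -2.60 ± 0.63 (SE), with an unadjusted p of 0.00172 and an adjusted p of 0.197 in edgeR's quasi-likelihood test, so Hoxd8 was not called. Of the 2739 31-base words in its annotated transcripts, 2 occurred in another gene (Hoxb8), and its exons overlap no other annotated gene.

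Hoxd4, an anterior gene of the cluster (chr2:74711929-74729160), was low but showed the same separation. It was at 0.860, 1.37, 0.654 and 0.738 CPM in tumors WT 2, 3, 6 and 9 (counts of 9, 16, 17 and 17), and at 0.101, 0.105, 0.171, 0.0372 and 0.0706 CPM in tumors null 7, 14, 15, 18 and 23 (counts of 2, 2, 5, 1 and 2). It passed the filter on low counts through the WT group alone, so it could only be tested because it was higher there. The log2 fold change was -3.13 ± 0.54 (SE; edgeR unadjusted p = 0.000124, adjusted p = 0.167). Hoxd4 shares exons with Hoxd3 and the gene model Gm28230, and 49.1% of its 31-base words occur in another gene, so how reads were split among them is uncertain. Counted as a single locus, Hoxd3, Hoxd4 and Gm28230 gave 1.15, 1.63, 1.27 and 1.04 CPM in the WT tumors and 0.101, 0.105, 0.171, 0.149 and 0.141 CPM in the null tumors, with no overlap.

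Hoxd9, next to Hoxd8 on the posterior side, did not pass the filter. It was at 1.81, 0.258, 1.15 and 0.391 CPM in tumors WT 2, 3, 6 and 9, and at 0, 0, 0.0342, 0.112 and 0.141 CPM in tumors null 7, 14, 15, 18 and 23. The groups did not overlap, but the null values rest on at most 4 counts. Hoxd3 itself reached at most 3 counts in a tumor, and Hoxd1 had none. DESeq2, which tests low genes too, called 3 Hox genes, all lower in the null tumors: Hoxd4 (log2 fold change -3.21 ± 0.70, adjusted p = 0.00128), Hoxd8 (-2.59 ± 0.58, adjusted p = 0.00204) and Hoxd9 (-3.86 ± 0.98, adjusted p = 0.00904). It gave an adjusted p to 25 of the 39 genes and called 2.35% of all genes it adjusted as lower.

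The RefSeq promoter windows of Hoxd8 and Hoxd4 are printed because these genes separated the groups, with that of Hoxa5, the gene with the highest level per length, whose groups overlapped widely, and that of Hoxa11, which was counted almost only in tumor WT 6. Each runs from 250 bases before to 50 bases after the RefSeq start (GRCm38.p6), 5′ to 3′ on the gene's strand, at chr2:74704365-74704664 (plus), chr2:74721728-74722027 (plus), chr6:52204538-52204837 (minus) and chr6:52245761-52246060 (minus). Capitals mark, on either strand, the TATA box letters TATAAA, the nuclear receptor half-site AGGTCA, the CCAAT box CCAAT and the Hox-Pbx letters TGATNNAT.
Hoxd8: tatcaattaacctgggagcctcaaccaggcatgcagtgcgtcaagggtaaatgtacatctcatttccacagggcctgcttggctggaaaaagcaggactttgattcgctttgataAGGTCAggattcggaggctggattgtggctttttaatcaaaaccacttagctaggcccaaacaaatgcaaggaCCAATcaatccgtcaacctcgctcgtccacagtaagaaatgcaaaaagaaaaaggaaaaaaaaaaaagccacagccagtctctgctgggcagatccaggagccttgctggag
Hoxd4: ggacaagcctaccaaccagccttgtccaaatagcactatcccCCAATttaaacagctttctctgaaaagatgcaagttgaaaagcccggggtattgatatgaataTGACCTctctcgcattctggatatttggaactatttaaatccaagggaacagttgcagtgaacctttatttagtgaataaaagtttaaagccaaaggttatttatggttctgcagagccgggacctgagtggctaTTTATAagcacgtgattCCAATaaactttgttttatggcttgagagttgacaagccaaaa
Hoxa5: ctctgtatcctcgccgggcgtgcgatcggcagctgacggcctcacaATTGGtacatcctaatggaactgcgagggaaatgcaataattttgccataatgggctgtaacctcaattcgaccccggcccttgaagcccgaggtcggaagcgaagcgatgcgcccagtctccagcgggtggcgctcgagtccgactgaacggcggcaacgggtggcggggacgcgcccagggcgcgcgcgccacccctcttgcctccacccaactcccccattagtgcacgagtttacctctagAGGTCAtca
Hoxa11: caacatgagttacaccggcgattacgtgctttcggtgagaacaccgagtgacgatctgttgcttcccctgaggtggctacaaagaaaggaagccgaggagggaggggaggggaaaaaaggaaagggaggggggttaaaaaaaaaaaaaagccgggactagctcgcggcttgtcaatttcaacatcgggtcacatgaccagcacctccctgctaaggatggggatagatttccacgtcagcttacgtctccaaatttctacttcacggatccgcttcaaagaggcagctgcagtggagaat
Hoxd8 and Hoxd4 had 6 and 4 CG dinucleotides in the window, where the median of all 32851 RefSeq windows was 7, and Hoxa5 and Hoxa11 had 29 and 15. AGGTCA stood in the windows of Hoxd8, Hoxd4 and Hoxa5 and in 16.3% of all windows, CCAAT in the same 3 and in 37.4%, and TATAAA in that of Hoxd4 and in 13.6%. TGATNNAT, found in 8.85% of all windows, was in none of these 4, and the Hoxa11 window held none of the letters searched. A match is a description of the letters only. Windows were found for 22 of the 39 genes (24 windows), with 4 to 45 CG dinucleotides, and AGGTCA was in 7 of the 24, CCAAT in 15, TATAAA in 4 and TGATNNAT in 4.

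**Figure D2:**
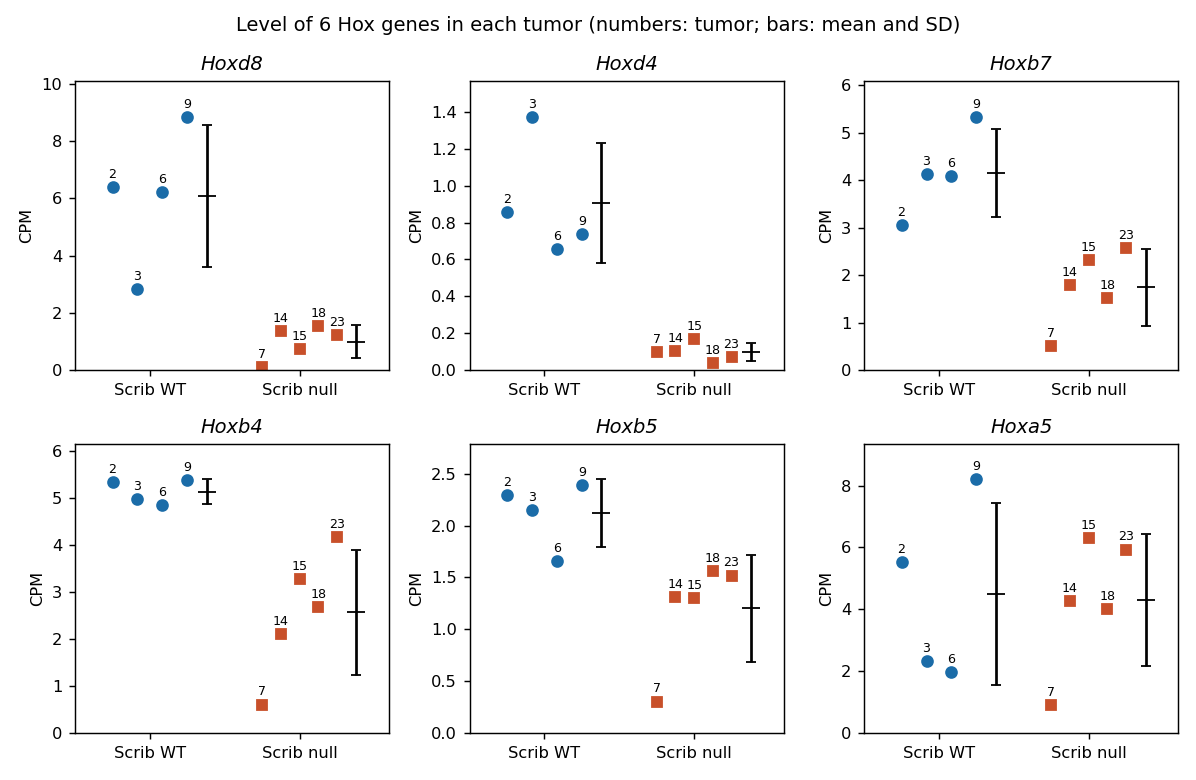
CPM (vertical axis, starting at 0) of Hoxd8, Hoxd4, Hoxb7, Hoxb4, Hoxb5 and Hoxa5 in each tumor, 1 point per tumor with its number, by label (horizontal axis; blue circles, Scrib WT, n = 4; orange squares, Scrib null, n = 5), with black bars for mean and SD. The groups do not overlap for the first 5 genes and overlap for Hoxa5, and tumor null 7 is the lowest point in every panel but that of Hoxd4.

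The Hoxb cluster (chr11:96194316-96368256, plus strand) held the most Hox mRNA in every tumor, between 44.0% and 68.3% of Hox counts. Its 10 genes summed to 26.8, 25.9, 28.1 and 36.8 CPM in tumors WT 2, 3, 6 and 9, and to 3.33, 18.0, 20.1, 17.1 and 23.7 CPM in tumors null 7, 14, 15, 18 and 23. The groups did not overlap, and the means were 29.4 ± 5.02 CPM (SD, n = 4) and 16.5 ± 7.77 CPM (SD, n = 5). The gap was narrow, with null 23 just under WT 3. The difference of mean log2 CPM was -1.08, and -0.57 without null 7.

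Hoxb7, a central gene, was at 3.06, 4.12, 4.08 and 5.34 CPM in tumors WT 2, 3, 6 and 9, and at 0.505, 1.79, 2.33, 1.53 and 2.58 CPM in tumors null 7, 14, 15, 18 and 23. Its log2 fold change was -1.25 ± 0.46 (SE; edgeR unadjusted p = 0.0212, adjusted p = 0.233), with every null tumor below every WT tumor. Hoxb4, known for its role in blood stem cell expansion, was even among the WT tumors at 5.35, 4.98, 4.85 and 5.38 CPM, and lay at 0.605, 2.10, 3.29, 2.68 and 4.17 CPM in tumors null 7, 14, 15, 18 and 23. Its groups did not overlap either (log2 fold change -0.996 ± 0.47, SE; edgeR adjusted p = 0.3005). Hoxb5 was at 2.29, 2.15, 1.65 and 2.39 CPM in the WT tumors and at 0.303, 1.31, 1.30, 1.56 and 1.52 CPM in the null tumors, with null 18 just under WT 6 (log2 fold change -0.81 ± 0.47, SE; edgeR adjusted p = 0.373). Thus these 3 genes separated the groups by less than Hoxd8 or Hoxd4 did.

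The other Hoxb genes overlapped between the groups. Hoxb6 was at 2.58, 4.73, 3.54 and 5.60 CPM in tumors WT 2, 3, 6 and 9, and at 0.0505, 1.74, 3.32, 1.94 and 2.61 CPM in tumors null 7, 14, 15, 18 and 23. Hoxb2, an anterior gene known from hindbrain patterning, was at 7.74, 4.04, 6.58 and 7.99 CPM in the WT tumors and at 0.505, 5.42, 4.11, 4.24 and 5.65 CPM in the null tumors. Tumor null 7 was by far the lowest for both genes. Hoxb8 was at 2.87, 3.01, 2.81 and 4.86 CPM in the WT tumors and at 0.656, 4.00, 2.50, 1.97 and 3.99 CPM in the null tumors, so 2 null tumors exceeded 3 of the 4 WT tumors. Hoxb3 ranged from 2.06 to 4.38 CPM in the WT tumors and from 0.605 to 3.15 CPM in the null tumors. Hoxb9, the first posterior gene, had 0, 9, 23 and 20 counts in tumors WT 2, 3, 6 and 9 and 2, 2, 4, 10 and 2 counts in tumors null 7, 14, 15, 18 and 23. Hoxb1 had 1 count, in null 23, and Hoxb13 none.

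The Hoxa cluster (chr6:52155590-52260880, minus strand) did not separate the groups. Its 11 genes summed to 18.2, 5.67, 20.1 and 18.5 CPM in tumors WT 2, 3, 6 and 9, and to 1.77, 8.57, 12.1, 10.0 and 15.0 CPM in tumors null 7, 14, 15, 18 and 23. Tumor WT 3 lay below 4 of the 5 null tumors. The means were 15.6 ± 6.69 CPM (SD, n = 4) and 9.49 ± 4.95 CPM (SD, n = 5). The difference of mean log2 CPM was -0.86, and -0.49 without positions 9 to 13. It was -0.33 without null 7, and -0.15 without both WT 6 and null 7.

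Hoxa5, known for its role in lung development, was at 5.54, 2.32, 1.96 and 8.20 CPM in tumors WT 2, 3, 6 and 9, and at 0.908, 4.26, 6.30, 4.02 and 5.93 CPM in tumors null 7, 14, 15, 18 and 23. The group means, 4.51 ± 2.94 CPM (SD, n = 4) and 4.28 ± 2.13 CPM (SD, n = 5), differed by far less than the spread within either group. Hoxa4 was at 2.10, 0.687, 0.847 and 2.78 CPM in the WT tumors and at 0.151, 1.42, 1.37, 1.86 and 2.75 CPM in the null tumors. For both genes the fitted difference was near 0 (log2 fold change -0.07 ± 0.59 for Hoxa5 and -0.08 ± 0.69 for Hoxa4, SE), and it turned positive when WT 2, WT 9 or null 7 was left out, reaching 0.40 and 0.34 without WT 9. Hoxa3 was at 5.16, 1.98, 2.12 and 3.73 CPM in the WT tumors and at 0.555, 2.37, 2.40, 2.75 and 3.21 CPM in the null tumors. Hoxa2 and Hoxa7 had log2 fold changes of -0.99 and -1.27, each with overlapping groups. Single tumors moved both: Hoxa2 was at -0.49 without WT 2, and Hoxa7 at -0.82 without WT 6. Hoxa6 reached at most 8 counts.

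The Hoxc cluster (chr15:102921103-103036852, plus strand) was the lowest of the 4 in the WT tumors. Its 9 genes summed to 6.59, 1.80, 5.12 and 5.38 CPM in tumors WT 2, 3, 6 and 9, and to 0.202, 1.79, 4.24, 2.61 and 3.64 CPM in tumors null 7, 14, 15, 18 and 23. The groups overlapped through WT 3, and the difference of mean log2 CPM was -1.32, or -0.55 without null 7. Hoxc4 was at 1.81, 0.773, 1.31 and 2.69 CPM in the WT tumors and at 0.0505, 1.05, 2.40, 0.745 and 1.27 CPM in the null tumors. Hoxc6, a gene of thoracic identity, was at 0.764, 0.344, 1.001 and 1.43 CPM in the WT tumors and at 0.101, 0.316, 0.411, 0.633 and 0.565 CPM in the null tumors. Hoxc5 was at 1.34, 0.430, 0.423 and 0.825 CPM in the WT tumors and at 0.0505, 0.421, 0.993, 0.372 and 0.953 CPM in the null tumors. These 3 genes were mixed between the groups, with log2 fold changes of -0.57, -1.12 and -0.39. Hoxc8, Hoxc9 and Hoxc10 reached at most 18, 35 and 11 counts, and Hoxc11 at most 3.

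Positions 9 to 13 were highest in tumor WT 6, at 18.6 CPM in sum against 0.101 to 4.97 CPM in the other tumors, and 70.1% of the 689 counts of all tumors at these positions came from it. The 16 genes took 483 of 1658 Hox counts in WT 6, or 29.1% (95% Wilson interval 27.0% to 31.4%, which covers counting error only), against 8.14%, 3.40% and 2.58% in WT 2, 3 and 9 and 0.352% to 4.01% in the null tumors. Of the 16 genes, 10 had their highest CPM in WT 6. Hoxa10 and Hoxa11, posterior genes known for patterning of the uterus, limb and kidney, led the pattern with 156 and 116 counts (6.00 and 4.46 CPM) in WT 6. In the other 8 tumors Hoxa10 reached at most 11 counts and Hoxa11 at most 4, both in WT 2. Hoxa9 had 42 counts, Hoxc9 35, Hoxd11 32, Hoxd9 30, Hoxd10 24, Hoxb9 23, Hoxc10 9, Hoxa13 8, Hoxd13 6 and Hoxd12 2 in WT 6. Not all of these were highest there: Hoxd9 was at 1.15 CPM in WT 6 and at 1.81 CPM in WT 2. Hoxc10 was at 0.346 CPM in WT 6, below WT 2 (0.764 CPM) and null 23 (0.388 CPM). Hoxb9 was highest in WT 6 by little, at 0.885 CPM against 0.868 CPM in WT 9. Hoxd10 was at 0.924 CPM in WT 6, at 0 in the other WT tumors and at 1 count in null 23 alone among the null tumors. Hoxd11 was at 1.23 CPM in WT 6, at 0.0859 and 0.0868 CPM in WT 3 and 9, and at 0 elsewhere.

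The antisense RNA Hoxa11os, which overlaps Hoxa11 on the opposite strand, followed it with 139 counts in WT 6, 1 in WT 9, 3 in null 23 and 0 in the other 6 tumors. Hoxa11 shares 33.9% of its 31-base words with Hoxa11os, and the sources used here do not say whether the libraries were stranded, so reads of the pair may not be told apart. Ranked by how far WT 6 exceeded the next highest tumor among 14162 genes, a ranking chosen after the values were seen, Hoxa11os came 2, Hoxa11 9, Hoxd11 12, Hoxa10 21, Hoxa9 30 and Hoxc9 48. The gene ranked 1 was Pnlip, a digestive lipase of acinar cells, with 530 counts in WT 6 and at most 4 in any other tumor. The acinar marker sum was 212 CPM in WT 6, 212 CPM in null 15 and 7.10 to 67.0 CPM in the others. The mesothelial marker sum was highest in WT 6 as well (1506 CPM against 241 to 934 CPM elsewhere), but Msln alone gave 1493 CPM of it. The other markers of that list, Upk3b, Wt1 and Lrrn4, were at 5.39, 6.54 and 1.19 CPM in WT 6. They were higher in null 15, at 33.5, 29.8 and 10.8 CPM, and in WT 2, at 11.4, 19.9 and 3.25 CPM. The part of acinar and mesothelial cells in the Hox pattern was not tested. Over the 28 Hox genes that were not near 0, the rank order of WT 6 had a median Spearman rho of 0.47 with the other tumors. Every other tumor had a median of 0.81 to 0.90 (a description over genes, which are not independent). Hoxa9, Hoxa11, Hoxd10 and Hoxd11 were among the 28 through their counts in WT 6 alone. The lower rho of WT 6 is therefore partly fixed by this choice of genes.

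**Figure D3:**
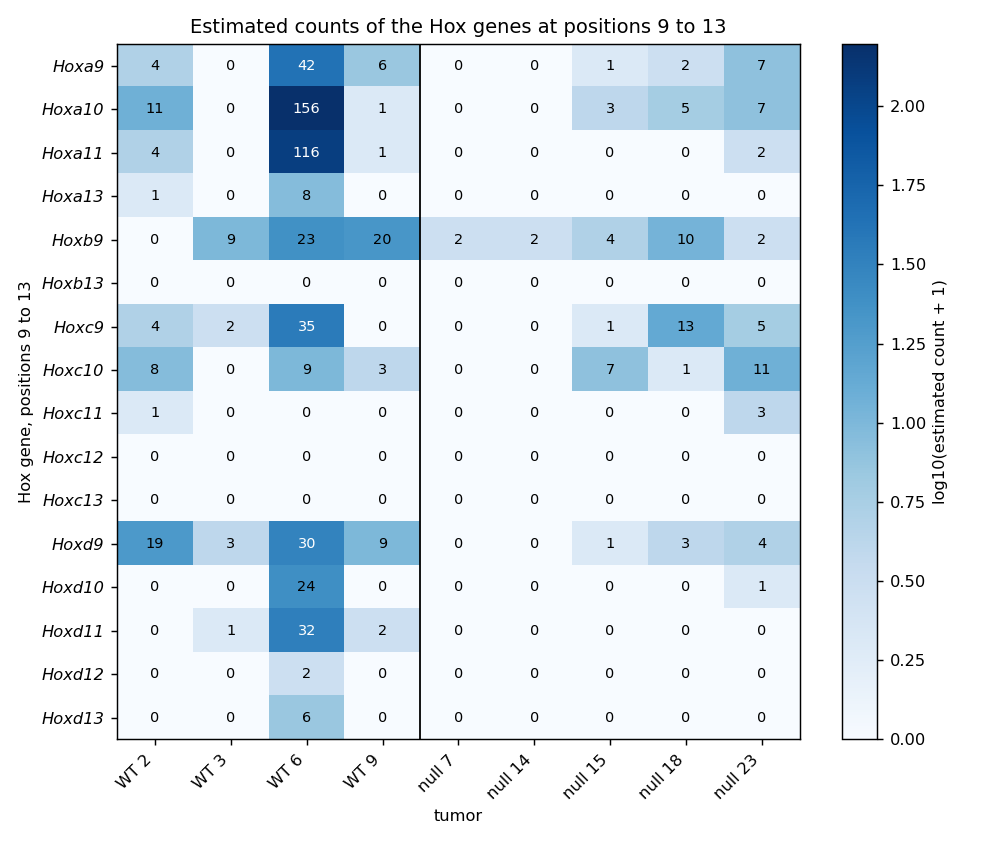
Estimated counts (number and shade, log10 of count + 1) of the 16 Hox genes at positions 9 to 13 (rows) in each tumor (columns; 4 Scrib WT left of the line, 5 Scrib null right of it). The highest counts, 156 for Hoxa10 and 116 for Hoxa11, stand in the column of WT 6, and tumors null 7 and null 14 hold 2 counts each, both of Hoxb9.

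Over the whole set, the 18 tested Hox genes all had a log2 fold change below 0 in the null tumors, with a median of -0.77, and none was called. Of all 16169 genes tested 52.2% had a value below 0 and the median was -0.03. edgeR called 0 of the 18 at an adjusted p under 0.05, a threshold that 0.0124% of all genes passed as lower. At an unadjusted p under 0.05, 3 of the 18 were lower (Hoxd4, Hoxd8 and Hoxb7) and 0 higher, against 10.0% of all genes lower and 7.64% higher. The groups did not overlap for 5 of the 18, all lower in null (Hoxb4, Hoxb5, Hoxb7, Hoxd4 and Hoxd8), against 3.49% of all genes lower and 3.42% higher. limma-voom called 0 (0.00618% of all genes lower) and put 4 lower at an unadjusted p under 0.05 (8.66% of all genes). With no filter on low counts 35 genes entered the edgeR fit, of which 33 were below 0 (51.3% of all genes) and 12 were lower at an unadjusted p under 0.05 (7.48% of all genes). DESeq2 gave a p to 33, with 31 below 0 (54.3% of all genes) and 10 lower at an unadjusted p under 0.05 (7.28% of all genes). Among the 12 were Hoxa9, Hoxa10, Hoxa11, Hoxa13, Hoxd10, Hoxd11 and Hoxd13, whose counts came mostly from the single tumor WT 6. Hoxa9, Hoxa10 and Hoxd11 were also among the 10, so both counts rest in part on that tumor. Hoxd4 entered the tested set through the WT tumors alone, and without it 2 of 17 were lower at an unadjusted p under 0.05 in edgeR and 4 of 17 did not overlap. The 18 genes are not independent, since tumor null 7 was the lowest of all 9 for 16 of them.

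The fibroblast marker sum was lowest in null 7, as were 16 of the 18 genes. Among the other tumors the 2 did not always move together. The marker sum was 9430 CPM in WT 2 and 2180 CPM in WT 3. The Hoxa, Hoxc and Hoxd sums were lower in WT 3 too, but the Hoxb sums were close (26.8 and 25.9 CPM). Tumor WT 6, with a marker sum of 3322 CPM, had the highest Hoxd sum (10.5 CPM). How far the covariate fit below depends on null 7 was not tested. When the mean log2 CPM of the 10 fibroblast markers entered the fit as a covariate, 8 of the 18 genes had a log2 fold change below 0 (48.7% of all genes) and 10 above 0. The genes that turned positive included Hoxa2 to Hoxa5, Hoxb2, Hoxb3, Hoxb8, Hoxc4 and Hoxc5, with values from 0.02 (Hoxb3) to 1.20 (Hoxa2). Hoxd4 stayed at -3.20 ± 0.61 and Hoxd8 at -1.74 ± 0.48 (SE; edgeR adjusted p = 0.202 for each), and Hoxb7 at -0.85 ± 0.41. Expressed per 1000 CPM of fibroblast markers, the Hoxd sum was 0.993, 2.09, 3.16 and 1.25 CPM in tumors WT 2, 3, 6 and 9, and 0.556, 0.398, 0.210, 0.440 and 0.463 CPM in tumors null 7, 14, 15, 18 and 23, still without overlap. On the same scale the Hoxa sum averaged 3.22 ± 1.91 CPM (SD, n = 4) and 3.36 ± 1.21 CPM (SD, n = 5), and the Hoxb and Hoxc sums overlapped too.

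**Figure D4:**
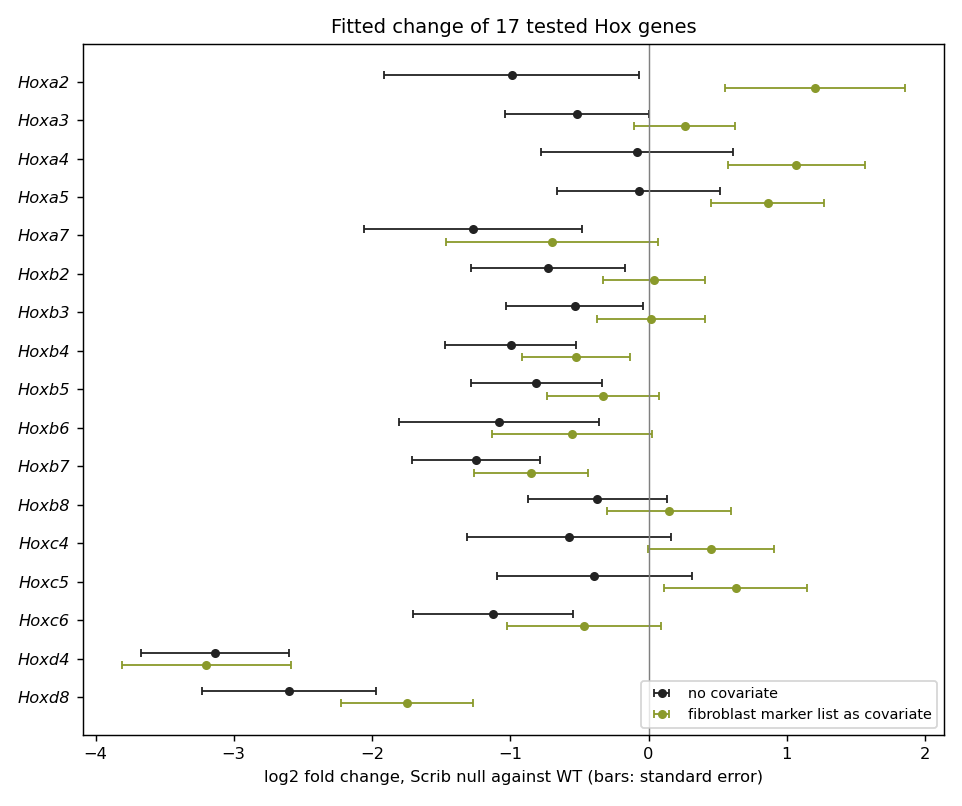
Log2 fold change of Scrib null against WT (horizontal axis, points, with bars for the standard error) for 17 of the 18 tested Hox genes (vertical axis), fitted with no covariate (black) and with the fibroblast marker list as a covariate (green). All 17 black points lie below 0, 9 green points lie above 0, and Hoxd4 and Hoxd8 keep the lowest values in both fits.

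**Figure D5:**
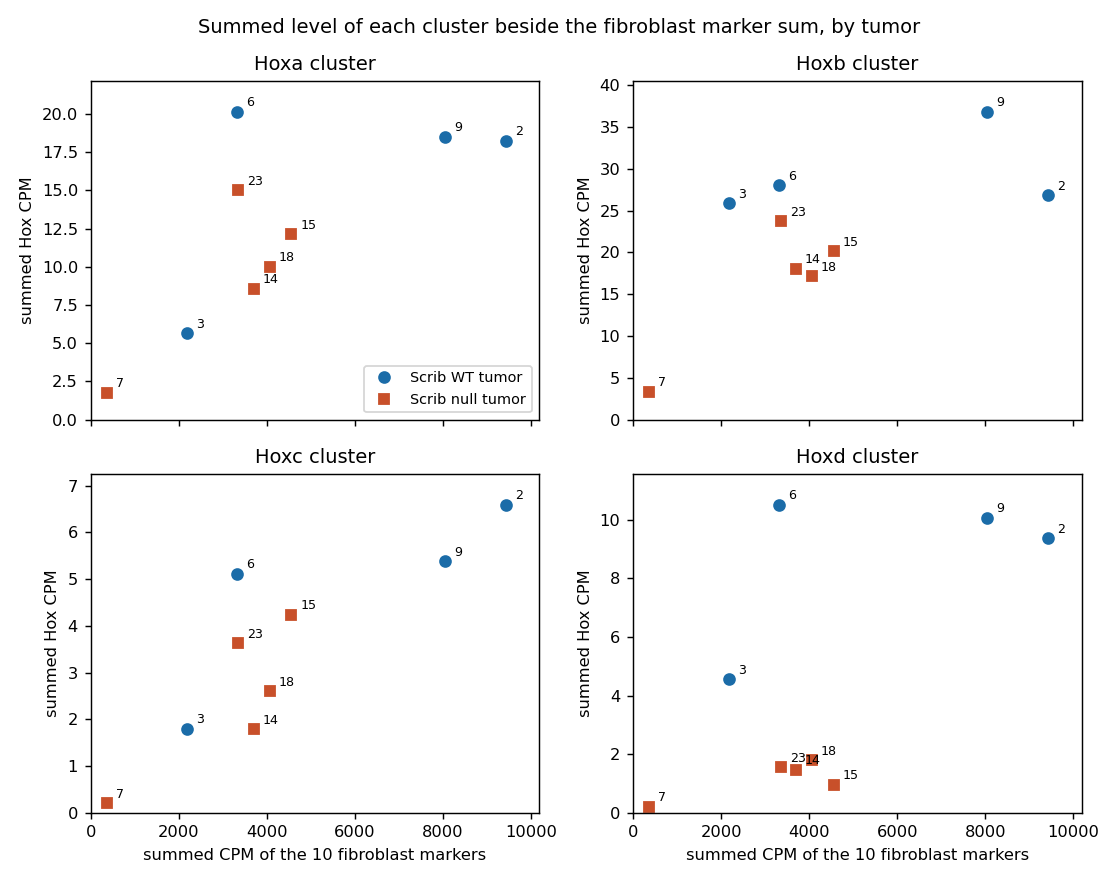
Summed CPM of each Hox cluster (vertical axis, starting at 0) beside the summed CPM of the 10 fibroblast markers (horizontal axis) in each tumor, 1 numbered point per tumor (blue circles, Scrib WT; orange squares, Scrib null). Tumor null 7 is lowest on both axes in all panels, and in the Hoxd panel the null tumors 14, 15, 18 and 23 lie at 0.958 to 1.79 CPM, below WT 3 and WT 6, whose fibroblast marker sums are lower than or close to theirs. The part of fibroblasts in these sums was not tested.

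Markers of other cell types differed between the groups as well. DESeq2 called Fabp4 and Adipoq (adipocyte), Lgals4 (intestinal), Mrc1 (macrophage), Cd52 (leukocyte) and Cd79b (B cell) lower in the null tumors. The DESeq2 adjusted p ran from 1.45e-05 for Fabp4 to 0.0463 for Cd52, while edgeR and limma-voom called no marker. The adipocyte marker sum was 54.4 to 257 CPM in the WT tumors and 9.99 to 21.2 CPM in the null tumors, without overlap, and 3 of its 4 markers were at 0 in some tumor. The sum of 5 intestinal markers was 461 to 3335 CPM in the WT tumors and 35.5 to 450 CPM in the null tumors. Lgals4, a galectin also expressed in pancreatic tumor epithelium, made up 1449 of the 1597 CPM in the WT mean and 164 of the 282 CPM in the null mean. Of the other intestinal markers Cdx1 was at 0 in 7 tumors and at most at 8 counts, while Cdx2 had 6 to 609 counts and Vil1 333 to 5974. Macrophage markers summed to 952 ± 410 CPM in the WT tumors (SD, n = 4) and 533 ± 152 CPM in the null tumors (SD, n = 5), and 5 of the 6 were lower at an unadjusted p under 0.05, as 10.0% of all genes were. Leukocyte markers summed to 389 ± 179 CPM (SD, n = 4) and 197 ± 75.03 CPM (SD, n = 5), with 3 of the 4 lower at that threshold. The endothelial sum was 165 to 379 CPM in the WT tumors and 33.3 to 204 CPM in the null tumors, and the pericyte and smooth muscle sum was 182 to 453 CPM against 62.8 to 277 CPM. The part of these cells in the Hox values was not tested.

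The tumor identifiers in the labels fall into a TB19 range (WT 2 with null 7, 14 and 15) and later numbers (WT 3, 6 and 9 with null 18 and 23). Hoxd8 was at 6.40 CPM against a null mean of 0.740 CPM in the TB19 range, and at means of 5.97 against 1.38 CPM among the later numbers. Hoxd4 was at 0.860 against 0.126 CPM and at 0.922 against 0.0539 CPM. Hoxb7 gave 3.06 against 1.54 CPM and 4.51 against 2.05 CPM. The groups did not overlap for these 3 genes, so null was bound to be lower within both ranges. Their side within a range therefore does not check an effect of the range, and the TB19 range holds a single WT tumor. The Hoxa genes did not behave alike: Hoxa5 was at 5.54 against 3.82 CPM in the TB19 range but at 4.16 against 4.98 CPM among the later numbers, and Hoxa2, Hoxa3 and Hoxa4 were higher in null among the later numbers too. With the range as a covariate the fit gave Hoxd8 -2.50 ± 0.66 and Hoxd4 -3.39 ± 0.61 (SE; edgeR adjusted p = 0.430 and 0.385).

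Noncoding RNAs of the clusters were low and, where tested, on the same side as the Hox genes. Of 12 listed, 5 passed the filter, all 5 had a log2 fold change below 0 at an unadjusted p under 0.05 (10.0% of all genes), and edgeR and limma-voom called none, while DESeq2 called 2 lower (Hoxb5os and Hoxd3os1; 2.35% of all genes). Hoxb5os and Hoxaas3 reached the filter's level in no null tumor and Hoxd3os1 and Hoxb3os in 1, so these 4 passed mainly through the WT group, and their side and separation are a description. Hoxb5os, antisense to Hoxb5, was at 0.573, 1.20, 0.962 and 1.17 CPM in tumors WT 2, 3, 6 and 9, and at 0, 0.105, 0.205, 0.149 and 0.212 CPM in tumors null 7, 14, 15, 18 and 23 (log2 fold change -2.77 ± 0.64, SE; edgeR adjusted p = 0.197). Hoxd3os1, antisense to Hoxd3 and Hoxd4, was at 0.669, 1.29, 1.46 and 0.911 CPM in the WT tumors and at 0.0505, 0.158, 0.171, 0.112 and 0.494 CPM in the null tumors (-2.40 ± 0.61; edgeR adjusted p = 0.201). Neither pair of groups overlapped, and both values rest on at most 38 counts. Hotairm1, an RNA of the anterior end of Hoxa, averaged 3.94 ± 1.02 CPM (SD, n = 4) and 1.497 ± 1.06 CPM (SD, n = 5). Hotair, an RNA of the Hoxc cluster, had no count in any tumor, and Hottip, of the posterior end of Hoxa, had 1 count, in WT 6.

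Genes that act with or on the clusters did not share that side. Of the 9 TALE cofactors, all tested, 6 had a log2 fold change above 0, a side on which 47.8% of all genes lay. Meis3 (0.94 ± 0.25, SE) and Meis1 (1.09 ± 0.40) were above 0 and Pknox2 (-1.92 ± 0.58) below 0 at an unadjusted p under 0.05, and edgeR and limma-voom called none. DESeq2 called Meis3 higher (adjusted p = 0.0268) and Pknox2 lower (adjusted p = 0.0294), where it called 1.25% of genes higher.

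On the trithorax side, which keeps clusters on, 10 of 11 genes were above 0 (47.8% of all genes), 2 of them at an unadjusted p under 0.05 (7.64% of all genes; Men1, 0.66 ± 0.21, and Kmt2b, 0.77 ± 0.29, SE), and Kmt2a was at 0.88 ± 0.40. Of 11 Polycomb genes, which keep clusters off, 9 were above 0 and 3 at an unadjusted p under 0.05: Cbx2 (0.91 ± 0.29), Suz12 (0.50 ± 0.20) and Pcgf2 (0.43 ± 0.18). The methyltransferase Ezh2 was at 0.14 ± 0.25. In the retinoid pathway 15 of 18 genes were tested, 10 above 0 and 5 below. The receptor Rarb was at -0.55 ± 0.50, the receptor Rarg at 0.69 ± 0.35 and the dehydrogenase Rdh10 at -0.59 ± 0.36. edgeR, limma-voom and DESeq2 called none of these 3 lists.

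Of the ParaHox and caudal genes, Pdx1 was at 31.1 ± 9.69 CPM in the WT tumors (SD, n = 4) and at 40.3 ± 6.35 CPM in the null tumors (SD, n = 5), and Cdx2 had a log2 fold change of -0.26 ± 1.24 (SE). Beside the clusters, 7 of 10 listed genes were tested and 6 were below 0, a side on which 52.2% of all genes lay. Skap2, the neighbour of the anterior end of Hoxa, averaged 101 ± 19.1 CPM (SD, n = 4) and 58.2 ± 22.9 CPM (SD, n = 5). Its groups did not overlap, as was so for 3.49% of all genes on the lower side (-0.79 ± 0.32, SE; edgeR adjusted p = 0.248). Skap1, beside Hoxb, was at -1.31 ± 0.59 and Mtx2, beside the anterior end of Hoxd, at -0.46 ± 0.22. Evx1 and Evx2, homeobox genes at the posterior ends of Hoxa and Hoxd, were near 0 CPM in both groups. edgeR, limma-voom and DESeq2 called no gene of these 2 lists.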

How the data were processed

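The 39 genes, the gene lists and the tests were chosen with earlier results of these data known. Messenger RNA of 9 whole tumors (4 Scrib WT, 5 Scrib null, grouped by the genotype in the labels) was sequenced by the authors. The deposited table holds estimated counts per gene, not normalised. The submitters' processing notes name Salmon 1.4.0, DESeq 2, GRCm38 and mm10. The annotation release and the strand setting are not given in the sources used here. Symbols and coordinates came from GENCODE M21 (54131 of 54453 rows), and 23863 rows held no count.

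The estimated counts were rounded to whole numbers. edgeR's filterByExpr, at a minimum count of 10 and a minimum total of 15, left 16169 genes, which were tested with edgeR 4.0.16 (TMM, quasi-likelihood, no covariate, R 4.3.3), with Benjamini-Hochberg adjustment over all genes tested and 0.05 as threshold. The SE is the log2 fold change divided by the square root of F. CPM is over the TMM-scaled library, and level per length divides it by the length of the union of exons. Sums over a cluster and levels per length got no test. Alternatives were RLE and plain library size, other filters, DESeq2 1.42.0, limma-voom (limma 3.58.1), covariates for the fibroblast list and the identifier range, tumors left out, and the longest transcript as length; leaving out WT 6 with null 7 and taking positions 1 to 8 alone were added after seeing the data. The edgeR test was tried on simulated data with 200 changed genes. At the threshold used it recovered 45% of 4-fold changes and 2% of 2-fold changes. The lack of calls therefore says little about changes of 2-fold or less, and 4-fold changes were also missed more often than recovered. The changed genes were drawn from all 16169 genes tested, not from low genes alone. These rates therefore do not hold for the Hox genes in particular. The common biological coefficient of variation was 0.494, so spread between tumors limited the precision, besides low counts.

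Values in every tumor are given for the 3 genes of each cluster with the highest level per length, genes with an unadjusted p under 0.05, genes whose groups do not overlap and genes with an outlying tumor. From each further list up to 3 genes with the smallest p were named, with Meis1, Pdx1, Cdx2, Rarb, Kmt2a, Ezh2, Hotair and Hottip in any case. Lgals4, Cdx1, Pnlip, Hoxa11os, the mesothelial markers and the markers that DESeq2 called were named after their values were seen. Haglros and Prac1, also listed, had no row. Results for some genes are not reported here.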

Additional observations from a re-analysis of the deposited data

Results flagged for a closer look

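For each of 36 sets of values (single Hox genes and the cluster sums), the WT and the null tumors were searched for a tumor far from the rest of its group by Dixon's criterion, 72 groups in all. Chance would flag about 1 in 20 groups if values were normally distributed and sets independent, and 10 were flagged. Some sets here lie near 0 counts and the sums share genes with the single sets, so the 10 cannot be set against that rate. Tumor WT 6 stood apart from the other WT tumors for Hoxa11 (4.46 CPM, the others at 0 to 0.382), Hoxd10 (0.924 CPM, the others at 0) and Hoxd11 (1.23 CPM, the others at 0 to 0.0868). Tumor null 23 stood apart for Hoxa11 (0.0706 CPM) and Hoxd10 (0.0353 CPM), where the other null tumors were at 0, and these values rest on 2 and 1 counts. Hoxb5 was apart in null 7 (0.303 CPM, the others at 1.30 to 1.56), and Hoxb8 in WT 9 (4.86 CPM, the others at 2.81 to 3.01). Hoxb9 was at 0 in WT 2, where the other WT tumors had 0.773 to 0.885 CPM, and at 0.372 CPM in null 18, where the other null tumors had 0.0706 to 0.137 CPM. The Hoxa sum was 5.67 CPM in WT 3, where the other WT tumors had 18.2 to 20.1 CPM.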

How the results depend on the processing

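No paired analysis was possible because the WT tumors (2, 3, 6 and 9) and the null tumors (7, 14, 15, 18 and 23) share no replicate number. The count of Hox genes called lower was 0 in edgeR and limma-voom under every setting run and 3 with DESeq2. The count at an unadjusted p under 0.05, 3 as reported, was 12 with no filter on low counts, 10 with DESeq2 and 5 without WT 3 and null 7 together. The 12 and the 10 include genes counted mostly in WT 6. The count below 0, 18 as reported, was 33 with no filter and 31 with DESeq2, where more genes were tested, and 8 with the fibroblast list as covariate. With each tumor left out in turn these 3 counts ranged from 0 to 0, 2 to 4 and 16 to 18. With the fibroblast covariate the log2 fold change turned positive for genes including Hoxa2 (1.20), Hoxa3 (0.26), Hoxa4 (1.07), Hoxa5 (0.86), Hoxb2 (0.040), Hoxb3 (0.019), Hoxb8 (0.15), Hoxc4 (0.45) and Hoxc5 (0.63); the cause was not tested. Hoxa4 ranged from -0.42 to 0.34, Hoxa5 from -0.32 to 0.40 and Hoxc5 from -0.60 to 0.0063 when single tumors were left out, Hoxa2 from -1.39 to -0.49 and Hoxa7 from -1.70 to -0.82. Without WT 3 and null 7 together Hoxa4 was at 0.0023 and Hoxa5 at 0.016, and without WT 6 and null 7 together Hoxa4 was at 0.018. Hoxd8 stayed between -2.81 and -2.29 and Hoxd4 between -3.46 and -2.83 with single tumors left out. The cluster sums, and the levels per length of Hoxa5, Hoxb7, Hoxc4 and Hoxd8, moved by less than 1 SD under every alternative run on them. Moves of the sums within this bound were still large when single tumors were left out. The difference of mean log2 CPM ranged from -1.29 to -0.33 for Hoxa and from -1.28 to -0.57 for Hoxb. It ranged from -1.73 to -0.55 for Hoxc and from -3.39 to -2.54 for Hoxd. Per kb of the longest transcript Hoxb7 led its cluster in 6 tumors, Hoxc4 in 6 and Hoxd8 in 8, and Hoxa3 stood at 1.04 instead of 0.448 CPM per kb. Plain library size shifted the median of all genes from -0.03 to 0.04, and the 18 Hox genes stayed below 0. The filter left 21 genes untested in edgeR, all 16 of positions 9 to 13 among them, and 4 of the 21 had no count in any tumor.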
